A study of Rattus norvegicus with 12 samples.

Results

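Ecel1 and Reg3b are genes known to be switched on late in sensory neurons whose axons have been cut, and they are described here in rat dorsal root ganglia during the early hours after removal of a piece of the sciatic nerve. They are 2 of the 29626 genes tested and of the 35287 gene names on the array, taken by their name in the scanner files. They were selected on their signal at 9 h, higher than before for both, so every comparison of theirs with 9 h, and every one with the 0.5 h reference, is given as a description without a test. Only 6 h against 3 h was tested for them.

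The ganglia of lumbar levels L4 to L6 came from male Sprague-Dawley rats in which a segment of the left sciatic nerve had been cut out at the mid-thigh. The labels give 24 rats in groups of 6, taken at 0.5, 3, 6 or 9 h, and 3 single-colour Agilent arrays per time, 12 arrays in all. All groups carried the injury and the anaesthesia, and no uninjured group is labelled, so 0.5 h is the earliest point and not a baseline. The labels do not say how many rats went into an array or whether arrays of a time came from different rats, so the p-values measure the spread between these samples, which may be technical.

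Ecel1 encodes endothelin-converting enzyme-like 1, a membrane metallopeptidase of the M13 (neprilysin) family that is made in neurons and is also called DINE, for damage-induced neuronal endopeptidase. Despite its name it is not known to convert endothelin. Reg3b encodes regenerating islet-derived 3 beta, also known as pancreatitis-associated protein, a small secreted C-type lectin that injured sensory and motor neurons begin to make and that acts on Schwann cells. Interleukin-6 family cytokines signalling through the transcription factor STAT3 are known inducers of Reg3b, and Atf3, Jun and STAT3 are known regulators of Ecel1 after axon injury.

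Each gene was read by 1 probe at 1 spot per array, and the probes are shown because each gene's values rest on that sequence alone. On the older rat assembly rn4, which the files use, the Ecel1 probe lies at chr9:85934030-85934089 on the minus strand, an unbroken run of 60 bases. The Reg3b probe lies at chr4:112357807-112358789 on the plus strand, where its 60 bases stretch over 983 bases of genome, so by the files' coordinates it crosses at least 1 intron and reads spliced RNA.
Ecel1 probe: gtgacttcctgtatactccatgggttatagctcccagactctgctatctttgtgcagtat
Reg3b probe: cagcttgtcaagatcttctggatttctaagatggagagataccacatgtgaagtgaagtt
Probe was compared with probe for the longest shared run of identical bases. For the Reg3b probe it was 6 with Reg3a and Reg3g, 7 with Reg1a and 9 with Reg4. The Ecel1 probe shared no run over 6 with those of Ece1, Ece2 and Mme. The match of either probe to the RNA of related genes was not examined, so these runs do not show specificity.

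Reg3b is the leftmost of a row of related genes on rat chromosome 4, followed by Reg3a, Reg1a and Reg3g with no other protein-coding gene between them in RefSeq (assembly GRCr8). The stretches before the starts of Reg3b and Reg3a are shown because both neighbours were higher at 9 h. The Reg3b stretch is chr4:112419526-112419775 and the Reg3a stretch chr4:112430147-112430396, both plus strand, GRCr8, from RefSeq, each 250 bases long and ending at the base before the start, with motif matches in capitals. RefSeq gives Reg3a a further start just downstream, whose window holds the same matches.
Reg3b upstream: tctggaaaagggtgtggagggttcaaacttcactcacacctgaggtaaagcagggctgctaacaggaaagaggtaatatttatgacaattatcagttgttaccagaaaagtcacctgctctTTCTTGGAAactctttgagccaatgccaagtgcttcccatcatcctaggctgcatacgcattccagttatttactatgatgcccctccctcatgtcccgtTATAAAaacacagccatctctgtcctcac
Reg3a upstream: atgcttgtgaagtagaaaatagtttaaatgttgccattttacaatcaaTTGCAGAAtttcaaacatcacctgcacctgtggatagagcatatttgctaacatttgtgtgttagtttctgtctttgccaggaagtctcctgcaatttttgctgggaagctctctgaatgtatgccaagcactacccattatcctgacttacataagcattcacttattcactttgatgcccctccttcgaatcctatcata
The search covered 6 motifs on both strands: TTCNNNGAA, bound by STAT factors, TGANTCA, bound by AP-1, TGACGTCA, bound by ATF and CREB factors, GGGCGG, bound by Sp1, TTGCNNAA, bound by C/EBP factors, and TATAAA, the box near many starts. None of them overlapped another in the stretches shown. Reg3b held TTCNNNGAA as TTCTTGGAA, its left end 129 bases before the start, a motif found in 7.67% of 33465 windows of this length. It also held TATAAA, 29 bases before the start, which 12.9% of windows hold. Reg3a held neither and had 1 match to TTGCNNAA, found in 9.22% of windows. The remaining shares were 6.34% for TGANTCA, 1.59% for TGACGTCA and 30.5% for GGGCGG. The only window given for Ecel1 lies inside the gene as RefSeq draws it, upstream of an inner start, and held no match to any of the 6. A match is a string of letters and was not tested for binding.

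Ecel1 was dim from 0.5 to 6 h and higher on every 9 h array. Its processed signal, in intensity units after the scanner software's background subtraction, was 150, 153 and 182 at 0.5 h and 106, 119 and 157 at 3 h. At 6 h it was 91.8, 127 and 122, and at 9 h it was 343, 332 and 335. The 9 h arrays lie close together and far above the rest, while the 3 h and 6 h arrays overlap and all 6 h arrays lie below all 0.5 h arrays. The means were 162 ± 17.6, 128 ± 26.4, 114 ± 19.1 and 337 ± 5.92 (SD, n = 3 arrays) in order of time. The spread at 9 h was 1.76% of the mean, smaller than the 10.1% error that the scanner software assigned to the spot, while at 0.5 h the spread was 10.9% and the scanner's error 13.5%.

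Reg3b was brighter above its surroundings and followed another course, level from 0.5 to 3 h, uneven at 3 and 6 h, and high on all 9 h arrays. Its signal was 511, 706 and 626 at 0.5 h and 446, 971 and 496 at 3 h. It was 974, 1040 and 699 at 6 h and 1873, 1999 and 2041 at 9 h. The other 2 arrays of 3 h lie below replicate 2 by a wide margin, and replicate 2 alone reaches the brighter 6 h arrays. The means were 615 ± 98.3, 638 ± 290, 904 ± 181 and 1971 ± 87.4 (SD, n = 3). The spread was 45.4% of the mean at 3 h and 20.0% at 6 h, above the scanner's own error, and 4.44% at 9 h.

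**Figure D1:**
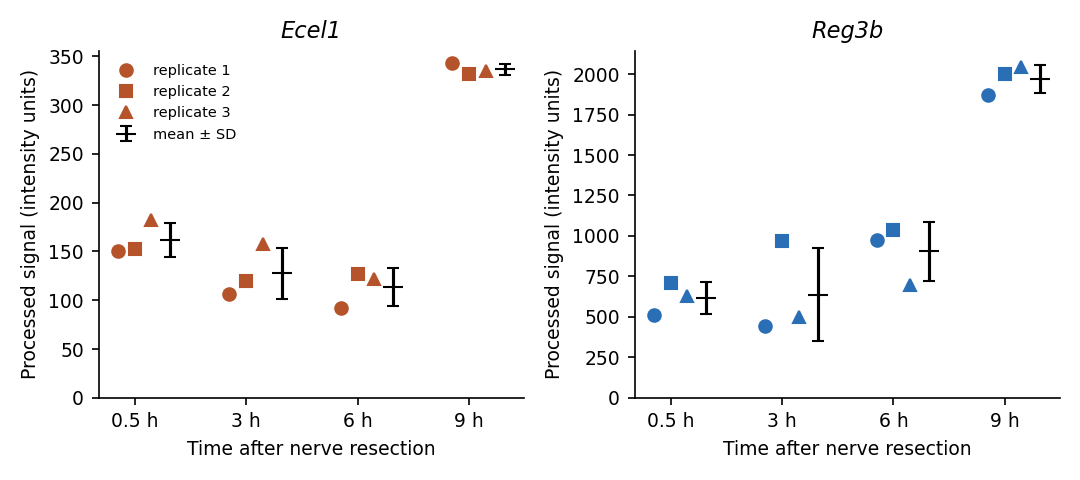
Processed signal (intensity units, linear axes from 0) of the Ecel1 and Reg3b probes on the 12 arrays by time after nerve resection, 1 symbol per array, with mean ± SD of 3 arrays beside each time. The 9 h arrays lie between 332 and 343 for Ecel1 and between 1873 and 2041 for Reg3b, above all other arrays.

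The scanner software marked both probes as well above background on all 12 arrays, and no spot was saturated or called an outlier. The processed signal of Ecel1 was 1.71 to 8.81 times its local background and that of Reg3b 5.29 to 51.7 times. Before background subtraction the Ecel1 spot had a mean brightness of 282 to 313 at 0.5 h, 170 to 226 at 3 h, 167 to 192 at 6 h and 438 to 442 at 9 h. The rise at 9 h is thus in the raw spot as well. Local background at this spot was 71 to 88 at 0.5 h and 38 to 44 at the later times, so that raw brightness at 0.5 h holds more of it.

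For the comparisons, signals were taken as log2 and each array's 75th percentile was subtracted, so a level of 0 is that percentile. Ecel1 was at -3.48 ± 0.18 at 0.5 h, -3.82 ± 0.36 at 3 h, -4.04 ± 0.29 at 6 h and -2.45 ± 0.02 at 9 h (SD, n = 3). Its level at 9 h was 2.04-fold that at 0.5 h (log2 1.03, SE 0.19), 2.59-fold that at 3 h (log2 1.37, SE 0.19) and 3.01-fold that at 6 h (log2 1.59, SE 0.19). The difference with 6 h is the widest, since Ecel1 was lowest at that time. It differed from 0.5 h by -0.34 at 3 h, with overlapping arrays, and by -0.56 at 6 h, without overlap. In order of level, 9 h stood apart, and 0.5, 3 and 6 h followed, with neighbours in that order overlapping.

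Reg3b was at -1.56 ± 0.26 at 0.5 h, -1.57 ± 0.55 at 3 h, -1.06 ± 0.41 at 6 h and 0.10 ± 0.10 at 9 h. At 9 h it was 3.15-fold its 0.5 h level (log2 1.66, SE 0.27), 3.18-fold its 3 h level (log2 1.67, SE 0.27) and 2.22-fold its 6 h level (log2 1.15, SE 0.27). At 6 h it differed from 0.5 h by 0.51 (SE 0.27), with overlapping arrays. In order of level, 9 h stood apart and the other 3 times overlapped one another.

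**Figure D2:**
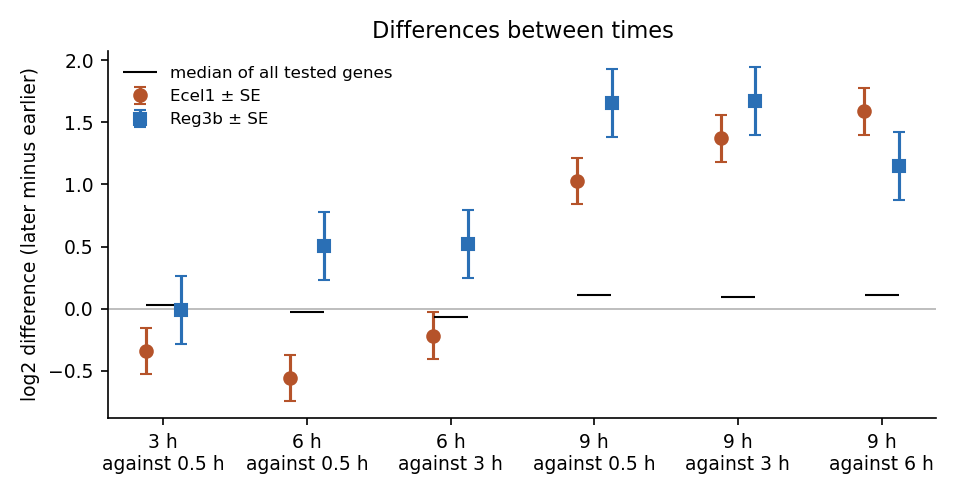
Differences in log2 level (later minus earlier time, ± SE of the fit over 12 arrays) for Ecel1 (circles) and Reg3b (squares) in all 6 comparisons, with the median of all tested genes as bars. Ecel1 lies below 0 in the 3 comparisons without 9 h, Reg3b lies at 0.51 and 0.52 in those of 6 h with earlier times, and both lie above 1 in the comparisons with 9 h.

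The comparison of 6 h with 3 h, whose difference uses neither the arrays of the choice nor its reference, passed the test for neither gene. Its interval and p use a spread pooled over all 12 arrays, those of 0.5 and 9 h included. Ecel1 differed by -0.22 (95% interval -0.64 to 0.20, limma adjusted p = 0.497), and 3 of the 9 pairs of arrays were higher at 6 h. Reg3b differed by 0.52 (interval -0.10 to 1.13, limma adjusted p = 0.264), with 8 of 9 pairs higher at 6 h. Fitted on the arrays of 3 and 6 h alone, the SE was 0.22 for Ecel1 (adjusted p = 0.551) and 0.32 for Reg3b (adjusted p = 0.339). Without 3 h replicate 2, the array on which Reg3b was high, its difference was 0.82 (adjusted p = 0.0555), and without 3 h replicate 1 it was 0.30 (0.588). That of Ecel1 was -0.01 without 3 h replicate 3 and -0.36 without 6 h replicate 2. Neither interval shows that the times were alike, since they still hold a fall of Ecel1 by 0.64 and a rise of Reg3b by 1.13 on the log2 scale. The sign for Ecel1 turned under a normexp background correction (0.37), in which 1 spot of the 6 h replicate 3 array with a local background of 16011 entered the fit, and it was -0.15 when such values were capped.

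High values at 9 h were common in these data. In 14.8% of tested genes every 9 h array lay above every array of the other times, and 23.4% of genes were called higher at 9 h than at 0.5 h (limma adjusted p under 0.05) against 10.3% lower. Against 6 h, 19.5% were called higher at 9 h and 5.87% lower. This balance turned with the scaling and the background correction: median scaling called 4284 genes higher and 5082 lower against 0.5 h, and 3523 and 6564 against 6 h, quantile scaling 3251 and 3632 against 6 h, and normexp without a cap 72 and 342 against 0.5 h and 38 and 129 against 6 h. Without the filter on dim probes, 6949 genes were called higher and 6224 lower against 0.5 h, and 8281 and 1770 against 6 h. Ecel1 ranked 2164 from the top in the difference with 0.5 h and 1467 in that with 6 h, and Reg3b 331 and 2561, of 29626. The median of all genes was 0.11 in both comparisons. Slide went with time: all 9 h arrays lay on 1 slide, as did all 0.5 h and all 3 h arrays, and the 6 h arrays lay on 2 others. The 3 h and 6 h arrays were scanned on the same day, and those of 0.5 h and of 9 h each on another. The rise at 9 h thus cannot be told apart from the slide or the scan day.

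High values at 9 h were most frequent among dim genes, and Ecel1 is a dim gene. With the tested genes put in order of mean level over the 12 arrays and split into 10 equal classes, every 9 h array was on top in 36.9% of class 1, the dimmest, and 3.19% of class 10. Ecel1 fell in class 4 and Reg3b in class 7. In class 4 the median difference between 9 and 6 h was 0.24, its 95th percentile was 1.47 and every 9 h array was on top in 19.1% of genes. Ecel1, at 1.59, lies just past that percentile, and against 0.5 h its 1.03 compares with a 95th percentile of 0.97. In class 7 the median was 0.04, the 95th percentile 0.39 and the share 6.01%, and Reg3b, at 1.15, lies far past it, as it does against 0.5 h (1.66 with a 95th percentile of 0.45). Both genes were picked for being higher at 9 h, so a place past the upper end of a class comes with the choice. It was not tested. These classes were drawn after the data had been seen. Dim genes could pass the filter on dim probes through their 9 h arrays alone, which can raise the shares of the dim classes.

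**Figure D3:**
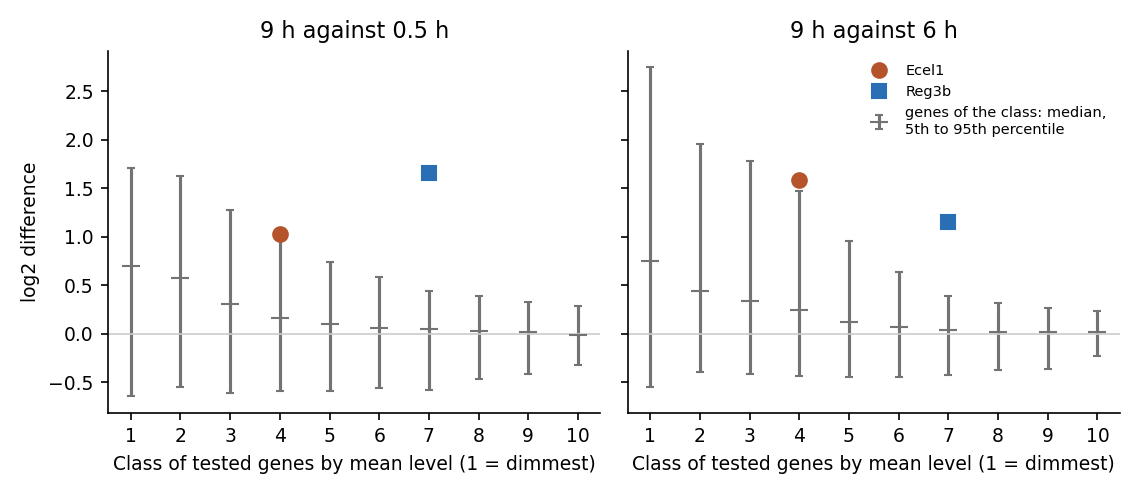
Differences in log2 level between 9 h and 0.5 h and between 9 h and 6 h by class of the tested genes in mean level (10 equal classes, 1 the dimmest), as median with 5th to 95th percentile, with Ecel1 and Reg3b in the class that holds them. The medians and upper ends shrink from dim to bright genes. Ecel1 lies at the upper end of class 4 and Reg3b well above that of class 7. Both were picked for being higher at 9 h.

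The genes whose course was most like that of Ecel1 over the 12 arrays were mostly ones not known for a role in ganglia. They were Nxnl1, a thioredoxin-like protein of the retina (Pearson r = 0.993), Hjurp, a name that the files give to a predicted gene (0.992), the olfactory receptor genes Olr115 (0.991), Olr1501 (0.99) and Olr1700 (0.988), and Atp4b, the beta subunit of the stomach's proton pump (0.988). Over the 9 arrays without 9 h the correlations were 0.944 to 0.973. These 9 arrays were among the 12 by which the genes were chosen, so high values there come in part with the choice. Olr115 was at a mean signal of 136 at 0.5 h, 86.8 at 6 h and 282 at 9 h, Atp4b at 128, 78.4 and 274, and Nxnl1 at 366, 267 and 689. Olr1501 was too dim to be marked well above background on any array of 0.5 h. All points share the arrays and their scaling, and no p is given.

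Many chemosensory receptor genes were also high at 9 h. Of 634 tested genes with names of olfactory, vomeronasal or taste receptors, 335 (52.8%) had every 9 h array on top, beside 14.8% of all tested genes. This class was looked at after the correlations were seen. A gene could pass the filter on dim probes through its 9 h arrays alone, which can raise this share, and such genes were not set aside. The median difference of the 634 genes was 0.96 between 9 and 0.5 h and 1.66 between 9 and 6 h, beside 1.03 and 1.59 for Ecel1. After normexp correction with a capped local background, these medians were 0.30 and 0.68, and Ecel1 differed by 0.74 and 1.28. What these genes and Ecel1 share in the rise at 9 h was not tested.

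The genes most like Reg3b were others. Closest was its neighbour Reg3a, another secreted lectin of the family (r = 0.959, and 0.829 over the 9 arrays without 9 h). Next came Scarf1, a scavenger receptor (0.930), Arhgef15, a signalling protein of endothelium (0.917), Vil1, the actin-binding protein villin (0.911), Ccl2, the chemokine that draws monocytes (0.911), and Hk2, hexokinase 2 (0.905). Without 9 h these 5 had correlations of 0.649 to 0.774. Vil1 and Hk2 were too dim to be marked well above background at 0.5 h, while Ccl2 was bright, with mean signals of 12210 at 0.5 h and 24490 at 9 h. No gene was on both lists of 6. The correlation of Ecel1 with Reg3b was 0.716 over the 12 arrays and -0.30 over the 9 without 9 h. Both were picked for high values at 9 h, so a positive value over the 12 arrays comes with the choice. Reg3b ranked 4149 of 29442 genes in correlation with Ecel1, where the 95th percentile was 0.90. Whether the courses of Ecel1 and Reg3b differed before 9 h was not tested.

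Reg3a shared part of the array-by-array pattern of Reg3b. Its signal was 1043, 1103 and 1291 at 0.5 h, 997, 1453 and 1080 at 3 h, 1416, 1414 and 1067 at 6 h and 2133, 2333 and 2506 at 9 h. Replicate 2 at 3 h was high and replicate 3 at 6 h low for both genes, and the 9 h arrays kept the same order, while at 0.5 h replicate 2 was highest for Reg3b and replicate 3 for Reg3a. Reg3a rose 1.98-fold between 0.5 and 9 h (log2 0.99, SE 0.18, limma adjusted p = 0.0028) and 1.81-fold between 6 and 9 h (log2 0.86, SE 0.18, adjusted p = 0.00583, but 0.0841 under normexp without a cap). Both genes were read on the same arrays, so Reg3a is no replicate of Reg3b.

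**Figure D4:**
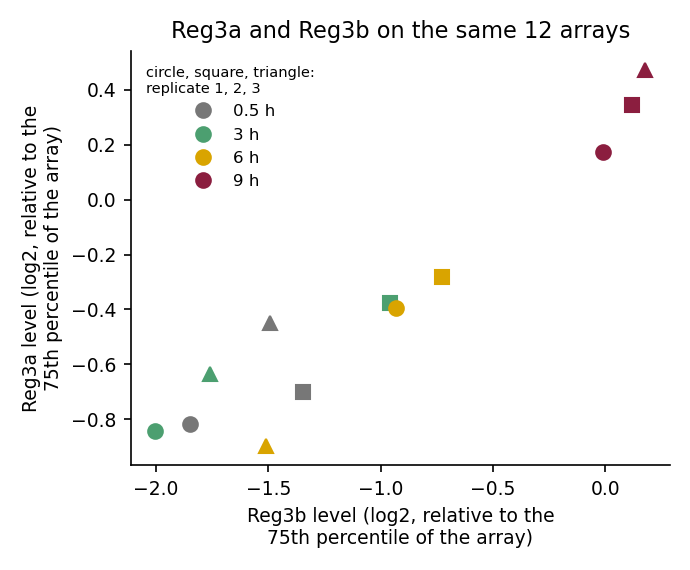
Level of Reg3a against level of Reg3b (each log2, relative to the 75th percentile of its array) on the 12 arrays, with colour for time and symbol for replicate number. The 9 h arrays stand at the upper right, and the 3 h replicate 2 array sits beside the 6 h replicate 1 and 2 arrays.

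Among the other Reg genes on the array, Reg1a, Reg3g and Reg4 were not well above background on all arrays of any time and were not tested. Reg3g reached that mark on 2 of 3 arrays at 9 h, 1 at 3 h, 1 at 6 h and none at 0.5 h. Extl3, an exostosin-like glycosyltransferase proposed as the receptor of Reg proteins, rose 1.60-fold between 6 and 9 h (log2 0.68, SE 0.14, limma adjusted p = 0.00585). Its difference with 0.5 h (0.49, adjusted p = 0.0258) lost its call without 0.5 h replicate 3 (0.083), 9 h replicate 2 (0.083) or 9 h replicate 3 (0.0712), under each of the 3 other scalings and under both normexp corrections. Both tested members of the Reg list, Reg3a and Extl3, were called higher against 0.5 h and against 6 h (median 0.74 and 0.77), where 23.4% and 19.5% of all genes were. Between 3 and 6 h limma called 0 (also 0 at an unadjusted p under 0.05).

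Of the relatives of Ecel1, the M13 peptidases, 5 of 6 were tested, Phex being dim. Against 0.5 h, 2 rose and none fell (median 0.44), where 23.4% of all genes rose. Against 6 h again 2 rose and none fell (median 0.24), where 19.5% rose, and between 3 and 6 h 1 fell, where 5.88% of all genes rose and 4.96% fell. Ece2, an endothelin-converting enzyme of neurons, rose by 0.83 on the log2 scale against 0.5 h (SE 0.15, adjusted p = 0.00249) and by 0.65 against 6 h (SE 0.15, adjusted p = 0.00858). The latter call ended under quantile scaling (0.173), cyclic loess (0.0956) and uncapped normexp. Ece2 was dim, marked well above background on 2 of 3 arrays at 0.5 h, and high values at 9 h were most frequent among dim genes. Mmel1, a neprilysin-like peptidase, was called against 0.5 h (adjusted p = 0.0398) but was dim on all arrays of that time and gave no usable bound. Its call ended without any array but 0.5 h replicate 2, 6 h replicates 1 and 2 and 9 h replicate 3 (0.052 to 0.126). Ece1, the main endothelin-converting enzyme, fell by 0.38 between 3 and 6 h (SE 0.06, adjusted p = 0.00432), although 1 of its 2 other probes went the other way. Its rise by 0.24 from 6 to 9 h (adjusted p = 0.0198) lost its call without 6 h replicate 2 or 3 or 9 h replicate 1 or 2 (0.0519 to 0.0826). Mme, neprilysin itself, differed by -0.10 and 0.05 (adjusted p = 0.622 and 0.828) against 0.5 and 6 h, and Kel was not called either.

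In the endothelin list, the peptides and receptors of that system, no gene was called higher. Of 5 genes tested, 1 fell against 0.5 h, where 23.4% of all genes rose and 10.3% fell. Against 6 h 0 were called (limma, also 0 at an unadjusted p under 0.05), where 19.5% rose and 5.87% fell. Between 3 and 6 h 1 fell, where 5.88% rose and 4.96% fell. With 5 genes, these counts say little beside those shares. The gene that fell was Ednrb, the receptor found on glia. It fell by 0.43 against 0.5 h (SE 0.10, limma adjusted p = 0.00824) and by 0.57 between 3 and 6 h (SE 0.10, adjusted p = 0.00536).

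On the signalling side of Reg3b, the interleukin-6 family and its STAT3 pathway, 14 genes were tested. Against 0.5 h, 3 rose and 1 fell (median 0.21), 21.4% higher, close to the 23.4% of all genes. Against 6 h, 3 rose and none fell (median 0.11), where 19.5% of all genes rose. Between 3 and 6 h 1 rose, where 5.88% of all genes did. Socs3, the feedback inhibitor that STAT3 induces, rose 1.87-fold against 0.5 h (log2 0.90, SE 0.14, adjusted p = 0.00131) and 2.11-fold against 6 h (log2 1.08, SE 0.14, adjusted p = 0.000344). Il6, the cytokine itself, was well above background on the 9 h arrays and no others, with signals of 30.6, 53.7 and 34.7 there. It was at least 2.30-fold higher than at 6 h, a fold taken against the lowest signal well above background. Il6 passed the filter on dim probes through the 9 h arrays alone, so no p is given for it and its place among the 3 that rose against 6 h supports nothing; without it 2 rose. The cells that made it are not known from whole ganglia.

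The other cytokines and receptors differed less. Lif differed by 0.20 against 0.5 h and 0.19 against 6 h (adjusted p = 0.395 and 0.47). Cntfr, the receptor of ciliary neurotrophic factor, was called against 0.5 h (adjusted p = 0.0128) without a usable bound, being dim on all arrays there, and rose by 0.86 against 6 h (adjusted p = 0.0256), but not without 6 h replicate 2 or 3 or 9 h replicate 1 or 3 (0.0588 to 0.0892). The kinase Jak2 rose by 0.27 (adjusted p = 0.01) against 0.5 h, and Jak1 fell by 0.19 (adjusted p = 0.0369), but not without any 1 of the 0.5 h arrays, 3 h replicate 1 or 9 h replicate 2 or 3 (0.0541 to 0.109). Stat3 was called higher at 6 h than at 3 h (log2 0.44, SE 0.08, adjusted p = 0.00583), but its other probe gave -0.43, so its direction is not settled by the array. Osm and Il11 were too dim to test.

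Regulators known for Ecel1 were among the injury transcription factors, of which 12 were tested. Against 0.5 h, 4 rose and 1 fell (33.3% higher, median 0.18), where 23.4% of all genes rose and 10.3% fell. Against 6 h, 4 rose and none fell (median 0.23), where 19.5% rose and 5.87% fell. Between 3 and 6 h 1 rose and 1 fell, where 5.88% rose and 4.96% fell. Atf3 had signals of 6970, 4388 and 8535 at 0.5 h, 3466, 5007 and 3843 at 3 h, 5777, 6841 and 7039 at 6 h and 25158, 21105 and 24253 at 9 h. As for the 2 late genes, the 9 h arrays stand apart. Atf3 rose 3.58-fold against 0.5 h (log2 1.84, SE 0.22, adjusted p = 0.000373) and 3.61-fold against 6 h (log2 1.85, SE 0.22, adjusted p = 0.000206), and both calls held under all alternatives tried. Sox11, a factor of axon regrowth, rose by 1.56 and 2.35 (adjusted p = 0.000211 and 1.52e-05). Jun, the AP-1 subunit, rose by 0.59 and 0.72 (adjusted p = 0.000969 and 0.000201). Myc rose by 0.54 against 0.5 h (adjusted p = 0.00177) and Smad1 by 0.37 against 6 h (adjusted p = 0.00895). Klf7 fell by 0.36 against 0.5 h and by 0.63 between 3 and 6 h (adjusted p = 0.00889 and 0.0011). Atf3, Sox11 and Jun were not called between 3 and 6 h (adjusted p = 0.104, 0.054 and 0.914).

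Of the other neuronal effectors of nerve injury, 19 were tested. Against 0.5 h, 3 rose and none fell (15.8% higher, beside 23.4% of all genes, and median 0.06 beside 0.11). Against 6 h, 3 rose and none fell (15.8%, beside 19.5%, median 0.04). Between 3 and 6 h 1 rose and 1 fell, where 5.88% of all genes rose and 4.96% fell. Gadd45a, a DNA damage response protein, rose by 0.91 and 0.72 (SE 0.09, adjusted p = 0.000104 and 0.000195). Flrt3 rose by 0.30 against 6 h (adjusted p = 0.0134). Hspb1, Csf1 and Stmn4 were called with differences of 0.30 or less at 9 h, each call ending without any of several arrays (adjusted p = 0.0537 to 0.156). Those arrays were 8 of 12 for Hspb1 and 10 for Csf1 against 0.5 h, and 4 for Stmn4 against 6 h. Between 3 and 6 h the calls of Csf1 (0.40) and Stmn4 (-0.30) ended without 4 arrays each, among them 3 h replicate 1 and 6 h replicate 3. The neuropeptide Gal differed by -0.10 and -0.05 (adjusted p = 0.504 and 0.739), and Npy, Vip, Bdnf and Gap43 were not called in any of the 3 comparisons.

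The list genes gave 37 calls over the 3 comparisons, and none changed sign under any alternative. Normexp without a cap ended 31 of the 37, among them those of Sox11, Jun, Socs3 and Gadd45a against 6 h (adjusted p = 0.42, 0.138, 0.476 and 0.125), whereas with the cap 5 ended, those of Mmel1, Extl3 and Cntfr against 0.5 h and of Ece1 and Stmn4 against 6 h. Median scaling ended 11, including Jak2 against 0.5 h (0.166) and Smad1 and Flrt3 against 6 h (0.253 and 0.512), and quantile scaling and cyclic loess ended 6 and 4. With all kept probes averaged, 4 ended, including Ece1 and Stat3 between 3 and 6 h (0.405 and 0.961). The replicate block ended 6, those of Jak1, Hspb1 and Csf1 against 0.5 h, Stmn4 against 6 h, and Csf1 and Stmn4 between 3 and 6 h (0.0523 to 0.0792). Fitting only the arrays of the times compared ended 7, those of Mmel1, Jak1, Jak2 and Csf1 against 0.5 h, Ece1 and Stmn4 against 6 h, and Stmn4 between 3 and 6 h (0.0527 to 0.123). Leaving out 1 array ended between 3 and 7.

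**Figure D5:**
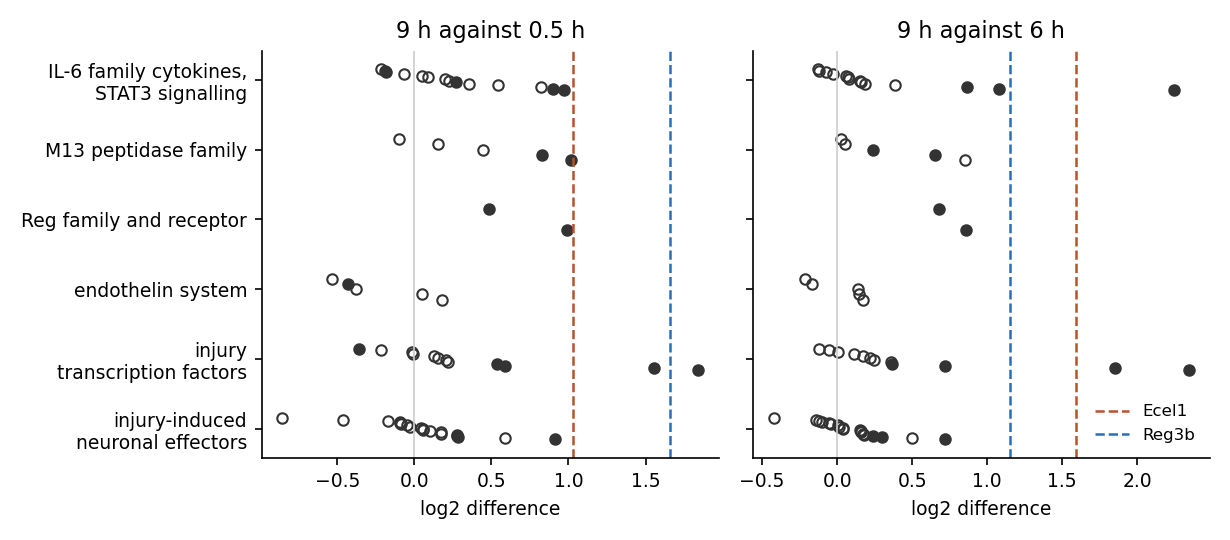
Differences in log2 level of the tested genes of the 6 lists at 9 h against 0.5 h and against 6 h, filled where limma's adjusted p was under 0.05, with dashed lines at the values of Ecel1 and Reg3b. Beyond the line of Ecel1 lie Atf3 and Sox11 in both panels and Il6 in the panel against 6 h.

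Markers of sensory neurons, the cells known to make both proteins after injury, were present throughout. All 14 on the array were well above background on every array, 0 were called against 0.5 h (limma, 2 at an unadjusted p under 0.05), and their mean level, centred over all arrays, was 0.01 to 0.07 at 9 h, within the -0.08 to 0.09 of 0.5 h. Against 6 h 3 of the 14 were called higher. Beside these counts and those that follow, 23.4% of all genes were called higher and 10.3% lower against 0.5 h. Against 6 h the shares were 19.5% and 5.87%. Neutrophil markers (7 tested) were at 0.35 to 0.69 at 9 h, against -0.48 to -0.09 at 0.5 h and -0.54 to -0.25 at 3 h, with 2 called higher against 0.5 h, and on 6 h replicate 3 they reached 1.45. On that array Reg3b was the lowest of its time, a remark on 1 array from which nothing follows. Between 9 and 6 h the median difference of the neutrophil markers was -0.07, with 1 called higher. Endothelial markers (6 tested) were at 0.18 to 0.36 at 9 h and -0.31 to 0.10 at all other times, with 2 called higher against 0.5 h and against 6 h. The other 7 marker lists were satellite glia, myelinating Schwann cells, macrophages, red blood cells, fibroblasts, skeletal muscle and fat. Against 0.5 h, 2 of 6 markers of myelinating Schwann cells were called lower. Of 8 satellite glia markers 1 was called higher and 1 lower, and of 8 macrophage markers 1 higher. The rest held no call. Against 6 h, 1 satellite glia marker was called higher and 1 lower, and no marker in the rest of these lists. The median differences of muscle and fat markers between 9 and 0.5 h were 1.05 and 1.16, near the 1.03 of Ecel1 (limma, 0 called, and 0 at an unadjusted p under 0.05, in each list). Between 9 and 6 h they were -0.28 and 0.20, where Ecel1 differed by 1.59 (again 0 called in each list). Muscle markers were at -1.51 to -0.06 at 0.5 h, -1.19 to 1.198 at 3 h, -1.07 to 2.12 at 6 h and -0.92 to 0.81 at 9 h. Fat markers were at -0.91 to -0.63 at 0.5 h, -1.56 to 1.02 at 3 h, -0.30 to 0.64 at 6 h and -0.70 to 1.22 at 9 h. All 0.5 h arrays were thus below the centre for both lists, and the later times spread to both sides of it. The part of any of these cells in the rise of either gene was not tested. In whole ganglia, more RNA per cell and more cells of a type cannot be told apart.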

How the data were processed

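Total RNA of rat dorsal root ganglia was amplified, labelled with Cy3 and hybridised to 1-colour arrays, per the labels. The deposited intensity values are linear and already background-subtracted by the scanner software, Agilent Feature Extraction 10.5.1.1, per the file headers. The authors' table for the whole series is identical to them (largest difference 0). Later steps by the authors are not given in the sources used here.

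Of 45018 spots per array, 1639 controls and those marked as outliers were left out. Intensities were taken as log2, each array's 75th percentile was subtracted and repeat spots were averaged. A probe was kept if the scanner marked it well above background on the 3 arrays of some time (34841 of 41012), and the brightest kept probe of each gene name gave 29626 genes. Probes so marked made up 63.3 to 67.6% at 0.5 h and 82.3 to 85.4% later, so differences with 0.5 h are less reliable for dim genes, and 3 arrays per time limit all precision. limma 3.58.1 in R 4.3.3, with files read by the data.table package (version 1.17.8), fitted 4 group means over the 12 arrays with 1 spread per gene, and adjusted p-values follow Benjamini-Hochberg over all genes. The code was tested on simulated data.

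The 2 genes and the 6 gene lists were chosen with earlier results of these data known, and no count of a list is independent support. Named are both genes, the 6 genes most correlated with each (placeholder names left out), up to 6 called genes per list, and Atf3, Jun, Stat3, Sox11, Il6, Lif and Gal. Sprr1a and Tyk2 were not found under those names. Same-numbered arrays of different times correlated at -0.13 to 0.22 in their deviations, with 3 of 18 pairs over 0.1, so replicate numbers were not taken as pairs. Promoter sequences are RefSeq's. A planned comparison of protein sequences was not run, as protein sequences were not used here. Alternatives covered background correction, scaling, probe filter and rule, outlier spots, arrays fitted together, replicate number or slide as a block, and each array left out.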

Additional observations from a re-analysis of the deposited data

How the results depend on the processing

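Under every alternative tried, the mean of both genes was higher at 9 h than at each other time, for which they were picked. Under uncapped normexp the Ecel1 arrays overlapped, with 6 h replicate 3 at -1.87 above 9 h replicates 2 (-2.14) and 3 (-1.99). The comparison of 6 h with 3 h passed the test for neither gene under any alternative. For Reg3b the alternatives that kept all arrays gave 1.52 to 1.66 against 0.5 h and 0.93 to 1.16 against 6 h. Ecel1 moved by more than its spread against 6 h under quantile scaling (1.33), normexp (1.098) and normexp with a capped local background (1.28), and against 0.5 h under cyclic loess (0.75) and capped normexp (0.74). Uncapped normexp turned the sign of Ecel1 for 6 h against 3 h (0.37, adjusted p = 0.671), gave -0.011 for 6 h against 0.5 h, and called 414, 167 and 308 genes when 9 h was set against 0.5 h, 9 h against 6 h, and 6 h against 3 h, where the main setting called 9998, 7529 and 3209. Single local backgrounds of 16011 and 26874 on 6 h replicate 3 and 9 h replicate 1 entered that fit: the Ecel1 spots there, with mean brightness 188 and 438, came out at 692 and 1087. With each array's local background capped at its 99th percentile, an alternative added after seeing the data, 7811, 7952 and 3470 genes were called. Plain background subtraction, also added, changed neither gene beyond its spread (Ecel1 0.89 and 1.52, Reg3b 1.58 and 1.12, at 9 h against 0.5 and 6 h).

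In the same order of comparisons, the share of called genes that were higher was 69.5, 76.9 and 54.3%. It was 53.5, 47.2 and 63.3% under quantile, 45.7, 34.9 and 65.2% under median and 58.4, 55.4 and 69.0% under cyclic loess scaling, 17.4, 22.8 and 85.7% under normexp, and 51.3, 79.0 and 48.3% with the cap. Without the filter on dim probes the share was 52.8, 82.4 and 59.6%. A median scaling moved the median of all genes against 6 h from 0.11 to -0.11.

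Slide as a random block called 17012, 12592 and 8132 genes, with an estimated correlation of -0.26 between arrays of a slide. With the replicate block 9035, 6737 and 2503 genes were called, and for 6 h against 3 h Ecel1 stood at -0.22 and Reg3b at 0.52, still not called. Leaving out 1 array gave, for 6 h against 3 h, -0.36 to -0.01 for Ecel1 and 0.30 to 0.82 for Reg3b, and left 7935 to 10330, 5439 to 7884 and 1653 to 3256 genes called. The last count was 1859 without 3 h replicate 1 and 1653 without 6 h replicate 3.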
